A study of Mus musculus with 8 samples.

Results

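The genes described here are those of apolipoproteins and of lipid export from the visceral endoderm, the epithelium that forms the outer layer of the yolk sac. They are Apoa1, Apoa2, Apoa4, Apob, Apoc1, Apoc2, Apoe and Apom, which encode the proteins of lipoprotein particles, with Mttp and Dgat2, which encode enzymes that make and load their lipid. They were taken by symbol from the probe sets that map to 1 gene, 18 in all, and for each gene the probe set that was brightest on average over the 8 arrays was used. All 10 were among the 10913 genes tested, of 18194 genes with a probe set. Of the 10 genes, 6 had several probe sets, and the others served as a check.

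Whole E9.5 mouse yolk sacs were profiled in 2 sets of 4 single-channel Affymetrix arrays each. In the first, 2 arrays of EC-N1ICD yolk sacs (Tie2 Tg/0; ROSA +/N1ICD) stood beside 2 of wild type (Tie2 0/0; ROSA +/+), all of strain C57BL6 and from Tie2 Tg/0 males mated with ROSA +/N1ICD females. In the second, 2 arrays of EC-Rbpj-KO yolk sacs (Tie2-Cre; Rbpj flox/flox) stood beside 2 called wild type in their titles, for which the labels give no genotype, all of mixed strain and from Tie2 Tg/0; Rbpj +/flox males mated with Rbpj +/flox females. Tie2-Cre acts in the endothelial and hematopoietic lineages, so the Notch1 intracellular domain is switched on, or Rbpj is lost, in those cells and not in the visceral endoderm itself. Every array carries a sample number of its own in its title, and the EC-Rbpj-KO arrays differed in sex and so came from different embryos, but the labels do not say whether the other pairs did, so part of the spread behind the p-values may be technical. The leading number of these titles is shared by replicate 2 of each mutant and both wild type arrays of its set, while replicate 1 of each mutant carries another, and the labels do not say what it stands for.

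Rbpj, through which activated Notch reaches DNA, had signals of 470 and 497 in the EC-Rbpj-KO pair, against 984 and 919 in the wild type pair, lower where the labels give its deletion (log2 fold change -0.98, adjusted p = 0.00866 from limma). Notch1 had 455 and 538 in the EC-N1ICD pair, against 453 and 335 in the wild type pair (adjusted p = 0.554). Median signals over the tested genes ran from 436 to 582. Xist was high on 3 arrays, both of EC-N1ICD and replicate 1 of EC-Rbpj-KO (2005 to 3730), and low on the other 5 arrays (77 to 96), so that sex and genotype cannot be told apart in the EC-N1ICD set. The 3' to 5' ratios, which track the integrity of the RNA, spanned 1.72 to 2.34 for Actb and 2.43 to 4.64 for Gapdh, the highest of the second on EC-Rbpj-KO replicate 1.

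The visceral endoderm takes up maternal nutrients, repackages lipid into lipoproteins and delivers them to the embryo before the liver does so. Apolipoprotein B is the scaffold of the particle. Microsomal triglyceride transfer protein, encoded by Mttp, lipidates it in the endoplasmic reticulum with triglyceride that diacylglycerol acyltransferases such as Dgat2 make, and the loss of Apob or Mttp in mice is lethal in midgestation. Apolipoproteins A-I and A-II are the core proteins of high-density lipoproteins, while the C apolipoproteins and apolipoprotein E move between particles and govern their lipolysis and uptake.

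RefSeq promoter windows of build GRCm38.p6, 250 bases before to 50 after an annotated start, were found for 8 of the 10 genes, as 11 windows. Apoc1 and Dgat2 were not matched. The 4 windows below belong to Apob, Mttp and Apom, whose 2 probe sets each read below wild type in EC-Rbpj-KO, and to Apoa1. The 4 probe sets of Apoa1 also read below wild type there, but closer to it, at -0.11 to -0.05 on the log2 scale. Each window is written 5' to 3' on the strand of the gene, with matches to the 6 motifs searched in capitals.
Apob, chr12:7977427-7977726, plus strand: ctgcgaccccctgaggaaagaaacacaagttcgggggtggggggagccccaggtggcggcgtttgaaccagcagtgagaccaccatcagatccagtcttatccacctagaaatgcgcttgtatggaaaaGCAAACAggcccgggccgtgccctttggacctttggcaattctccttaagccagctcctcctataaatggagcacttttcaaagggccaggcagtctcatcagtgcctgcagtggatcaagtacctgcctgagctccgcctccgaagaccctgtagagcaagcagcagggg
Mttp, chr3:138143369-138143668, minus strand: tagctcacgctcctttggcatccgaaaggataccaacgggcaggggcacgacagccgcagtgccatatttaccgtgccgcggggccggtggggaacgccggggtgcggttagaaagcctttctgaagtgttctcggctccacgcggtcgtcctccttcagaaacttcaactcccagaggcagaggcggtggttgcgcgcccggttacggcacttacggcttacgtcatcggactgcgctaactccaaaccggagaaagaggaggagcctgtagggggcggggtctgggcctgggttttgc
Apom, chr17:35131752-35132051, minus strand: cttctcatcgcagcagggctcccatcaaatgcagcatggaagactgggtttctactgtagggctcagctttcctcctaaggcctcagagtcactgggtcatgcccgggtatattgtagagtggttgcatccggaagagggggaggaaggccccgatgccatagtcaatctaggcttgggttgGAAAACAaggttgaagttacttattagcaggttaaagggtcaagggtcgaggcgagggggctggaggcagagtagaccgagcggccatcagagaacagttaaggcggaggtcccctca
Apoa1, chr9:46228380-46228679, plus strand: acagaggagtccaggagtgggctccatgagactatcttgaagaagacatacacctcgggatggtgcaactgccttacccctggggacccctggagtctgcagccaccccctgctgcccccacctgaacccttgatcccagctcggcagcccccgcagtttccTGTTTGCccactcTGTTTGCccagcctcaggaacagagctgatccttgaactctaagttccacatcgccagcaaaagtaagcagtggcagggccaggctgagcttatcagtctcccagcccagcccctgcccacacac

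The motifs were searched on both strands and none contains another. The forkhead motif of FOXA factors, TGTTTNC, stood in the windows of Apoa1 at -88 and -75 on the strand of the gene, of Apob at -121 and of Apom at -68 on the opposite strand, and also in a window of Apoa2 and of Apoe. It is present in 20.5% of the 32851 windows counted, which leave out a whole chromosome and any window short of full length. Shares of all windows below refer to these. The core GTGGGAA, bound by RBPJ, was in none of the 11 windows, against 6.38% of all windows. The HNF4 site CAAAGTCCA was also in none of them, against 0.475% of all windows. So was AGATAA, bound by GATA factors, against 11.2%. The HNF1 letters GTTAAT were in a window of Apoc2 and of Apoe (7.1% of all windows), and the nuclear receptor letters AGGTCA in a window of Apoa2 and of Apoc2 (16.3%). The window of Mttp held none of the 6. A match is a description of the letters and not a bound site.

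No gene of the 10 passed the test in EC-N1ICD yolk sacs (adjusted p under 0.05 from limma over all tested genes), where 0.596% of the tested genes did. In EC-Rbpj-KO yolk sacs none passed either, against 4.96% of the tested genes. At an unadjusted p under 0.05, Apoa2 and Apoa4 were lower in EC-N1ICD, as 5.47% of the tested genes were. Apob and Apom were lower at that level in EC-Rbpj-KO, as 11.6% of the tested genes were. The median log2 fold change of the 10 genes was -0.03 in EC-N1ICD, beside 0.01 over all tested genes. It was -0.08 in EC-Rbpj-KO, beside -0.02 over all of them. Their median size without regard to sign was 0.08 and 0.11, beside 0.16 and 0.21 over all tested genes, and their median standard error was 0.10, beside 0.20. In bulk tissue, fewer visceral endoderm cells and less RNA per cell cannot be told apart.

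**Figure D1:**
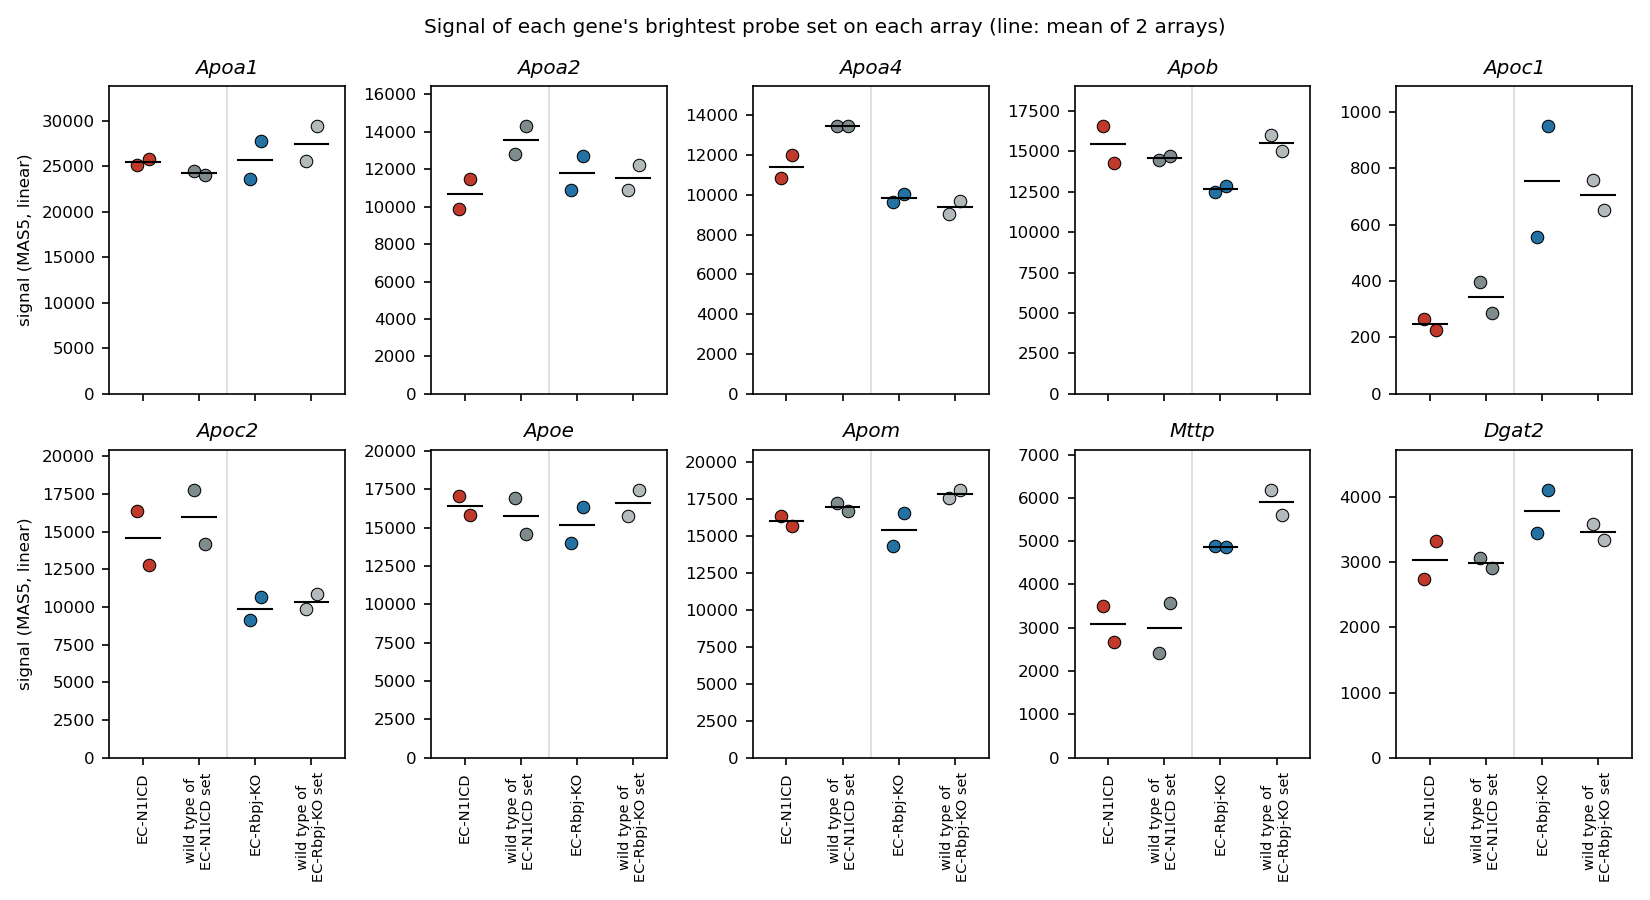
Signal of each gene's brightest probe set (vertical axis, linear, from 0) on each of the 8 arrays, with each mutant left of its wild type, points for arrays and lines for the mean of 2. Apob sits at 12475 and 12850 in EC-Rbpj-KO, below 16013 and 15035 in wild type, while Mttp and Apoc1 are lower on all 4 arrays of the EC-N1ICD set than on any array of the EC-Rbpj-KO set.

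**Figure D2:**
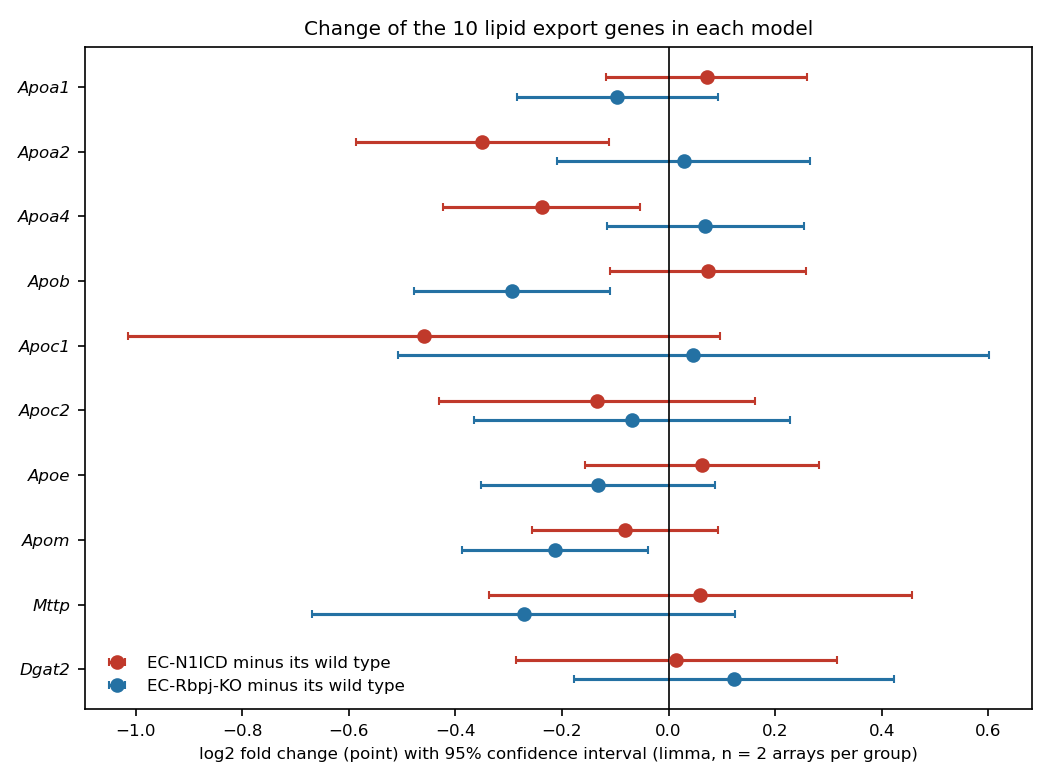
Log2 fold change of each gene (horizontal axis) in EC-N1ICD and EC-Rbpj-KO against its own wild type, with 95% confidence intervals from limma (n = 2 arrays per group). The intervals of Apoa2 and Apoa4 in EC-N1ICD and of Apob and Apom in EC-Rbpj-KO lie below 0, and none of the 4 passed after adjustment over all tested genes.

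Among the proteins of high-density lipoproteins, Apoa1, which encodes the main protein of these particles, had signals of 25105 and 25836 in the EC-N1ICD pair, against 24430 and 24042 in the wild type pair. In the EC-Rbpj-KO pair it read 23624 and 27823, against 25552 and 29411 in its wild type pair. The EC-N1ICD arrays lay just above their wild type arrays and the EC-Rbpj-KO arrays overlapped theirs, with log2 fold changes of 0.07 (95% interval -0.12 to 0.26) and -0.10 (-0.29 to 0.09). Its 4 probe sets gave 0.02 to 0.08 for the EC-N1ICD pair and -0.11 to -0.05 for the EC-Rbpj-KO pair. At most 0.153% of the probe sets on an array were brighter than any of the 4, so Apoa1 was read near the top of the range, and the part of this in its small differences was not tested.

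Apoa2, the second core protein, had signals of 9868 and 11453 in the EC-N1ICD pair, against 12824 and 14304 in the wild type pair. Both mutant arrays lay below both of wild type, at -0.35 on the log2 scale (SE 0.11, interval -0.59 to -0.11, adjusted p = 0.202 from limma). In the EC-Rbpj-KO pair it read 10890 and 12689, against 10878 and 12213 in its wild type pair. These overlapped, at 0.03 (interval -0.21 to 0.27, adjusted p = 0.922).

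Apoa4, an intestinal-type apolipoprotein of triglyceride-rich particles, had signals of 10842 and 11990 in the EC-N1ICD pair, against 13447 and 13439 in the wild type pair. Here too the groups did not overlap, with a log2 fold change of -0.24 (SE 0.08, interval -0.42 to -0.05, adjusted p = 0.265 from limma). Its second probe set read 7361 and 7954, against 8176 and 8499, a smaller difference of -0.12 in the same direction. In the EC-Rbpj-KO pair it read 9631 and 10025, against 9048 and 9702 in its wild type pair (0.07, adjusted p = 0.704), and its second probe set gave -0.05. The brightest probe sets of Apoa1 and Apoa4 are of the kind that ends in _x_at, whose probes can also match other transcripts.

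Apom, which carries sphingosine-1-phosphate on high-density lipoproteins, had signals of 14329 and 16504 in the EC-Rbpj-KO pair, against 17573 and 18097 in the wild type pair. Both arrays lay below both of wild type, at -0.21 (SE 0.08, interval -0.39 to -0.04, adjusted p = 0.158 from limma), and its second probe set gave -0.30, from 10994 and 12335 against 13564 and 15103. EC-N1ICD arrays had 16303 and 15659, against 17189 and 16638 in wild type, which did not overlap either, at -0.08 (interval -0.26 to 0.09) and -0.10 on the second probe set.

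Particle assembly was read on Apob, Mttp and Dgat2. Apob had signals of 12475 and 12850 in the EC-Rbpj-KO pair, against 16013 and 15035 in the wild type pair. Its log2 fold change of -0.29 (SE 0.08, interval -0.48 to -0.11) was 0.816 times wild type and had an adjusted p of 0.0713 from limma, the smallest of the 10 genes. The second probe set read 2533 and 2242 in the EC-Rbpj-KO pair, against 5366 and 3492 in the wild type pair, a larger difference of -0.86 (adjusted p = 0.0533 where the second-brightest probe set stood for each gene). Averaged over its probe sets Apob stood at -0.58 and passed (adjusted p = 0.0417), the one call among the 10 genes under any alternative. In the EC-N1ICD pair Apob read 16561 and 14303, against 14494 and 14736 in its wild type pair. Those groups overlapped, at 0.07 (interval -0.11 to 0.26), and its second probe set gave 0.11.

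Mttp had signals of 4895 and 4854 in the EC-Rbpj-KO pair, against 6182 and 5604 in the wild type pair. The mutant arrays were lower without overlap, at -0.27 (SE 0.18, interval -0.67 to 0.12, adjusted p = 0.434 from limma), while the second probe set gave -0.56 from 3196 and 2573 against 3898 and 4585 (adjusted p = 0.0734 with the second-brightest probe sets). In the EC-N1ICD pair it read 3502 and 2670, against 2405 and 3579 in its wild type pair. The wild type arrays lay on either side of the mutant arrays, and the probe sets of Mttp differed in sign, 0.06 and -0.27 on the log2 scale. The Actb 3' to 5' ratio was 2.29 and 2.09 in the EC-Rbpj-KO pair, against 1.90 and 1.84 in its wild type pair, and its part in the lower values of Apob and Mttp was not tested.

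Dgat2, which forms triglyceride, had signals of 3459 and 4116 in the EC-Rbpj-KO pair, against 3594 and 3344 in the wild type pair. It had 2743 and 3332 in the EC-N1ICD pair, against 3067 and 2919 in the wild type pair. The groups overlapped in both sets, with log2 fold changes of 0.12 (interval -0.18 to 0.42) and 0.01 (interval -0.29 to 0.32). The dimmer second probe set gave -0.39 in EC-Rbpj-KO, from 527 and 521 against 641 and 737, so the probe sets of Dgat2 disagreed in direction there.

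**Figure D3:**
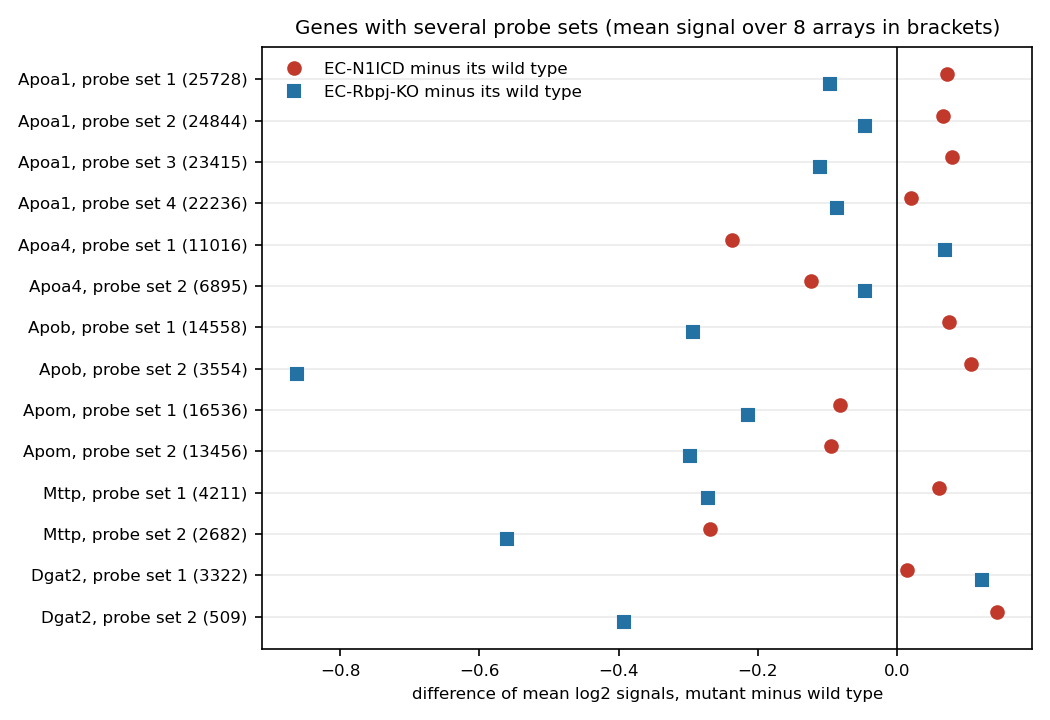
Difference of mean log2 signals, mutant minus wild type (horizontal axis), for every probe set of the 6 genes that have several, from the brightest down, with the mean signal over 8 arrays in brackets. In EC-Rbpj-KO both probe sets of Apob, Apom and Mttp lie below 0 and the dimmer one lies further out, and those of Dgat2 and Apoa4 stand on both sides of 0.

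Among the exchangeable apolipoproteins, Apoe, the ligand of lipoprotein receptors, had signals of 17051 and 15785 in the EC-N1ICD pair, against 16937 and 14563 in the wild type pair. The EC-Rbpj-KO pair read 14000 and 16319, against 15730 and 17452 in its wild type pair. Both pairs of groups overlapped, with log2 fold changes of 0.06 (interval -0.16 to 0.28) and -0.13 (interval -0.35 to 0.09). Apoe is also made by macrophages, whose markers had a median above wild type in both models, as given below.

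Apoc2, the cofactor of lipoprotein lipase, had signals of 16397 and 12758 in the EC-N1ICD pair, against 17770 and 14186 in the wild type pair. The EC-Rbpj-KO pair read 9152 and 10633, against 9874 and 10838 in its wild type pair. The groups overlapped in both sets, with -0.13 (interval -0.43 to 0.16) and -0.07 (interval -0.37 to 0.23). Apoc1, which slows particle uptake, was the dimmest of the 10 probe sets on every array. It had 266 and 227 in the EC-N1ICD pair, against 396 and 288 in the wild type pair, a difference without overlap of -0.46 whose interval, -1.01 to 0.10, was the widest of the 10. In EC-Rbpj-KO its arrays were 557 and 949, one on either side of the 759 and 653 of wild type (0.05, interval -0.51 to 0.60).

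Mutant and wild type arrays did not overlap for 5 of the 10 genes in EC-N1ICD, of which Apoa1 was higher and Apoa2, Apoa4, Apoc1 and Apom were lower, beside 42.6% of all tested genes. In EC-Rbpj-KO they did not overlap for 3, Apob, Apom and Mttp, all lower, beside 27.5% of the tested genes that were lower without overlap. The difference between the changes of the models was tested as a contrast, and none of the 10 passed it (0.266% of the tested genes did). Past an unadjusted p under 0.05 were Apoa2 (-0.38), Apoa4 (-0.31) and Apob (0.37), EC-N1ICD change minus EC-Rbpj-KO change, with adjusted p-values of 0.397, 0.38 and 0.293 from limma, and 10.8% of the tested genes were past it.

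The arrays of a group were not alike. Set against the wild type mean of each set, the mean log2 signal of the 10 genes was -0.06 and -0.13 in the EC-N1ICD pair and -0.19 and 0.03 in the EC-Rbpj-KO pair. EC-Rbpj-KO replicate 1, the array with the higher Xist and Gapdh ratio in its group, was thus the lowest of the 4 mutant arrays. Apob and Mttp were lower on both EC-Rbpj-KO arrays, at -0.31 and -0.27 for Apob and at -0.27 and -0.28 for Mttp. Over the 8 arrays the tested genes whose profile was nearest to this mean were Baalc, Cfap298, Tmem116, Crat and Zdhhc13, with Pearson r between 0.942 and 0.954. Crat, carnitine acetyltransferase, had signals of 273 and 260 in the EC-N1ICD pair, against 302 and 280 in the wild type pair, and 241 and 345 in the EC-Rbpj-KO pair, against 294 and 323 in the wild type pair. These r were picked as the highest of all tested genes and are a description over 8 arrays that share their sets. Baalc was dim, at 66 to 107 over the 8 arrays.

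The wild types of the sets differed over the whole array. Of the tested genes 34% passed between the wild type of the EC-N1ICD set and that of the EC-Rbpj-KO set, 920 higher and 2790 lower in the first. The median log2 difference over the tested genes was -0.17. Of the 10 genes, 4 passed, near the share of all tested genes. Set and strain cannot be told apart here. Apoa4 had 13447 and 13439 in the wild type of the EC-N1ICD set, against 9048 and 9702 in that of the EC-Rbpj-KO set, 1.43-fold higher (log2 0.52, adjusted p = 0.00123 from limma), and its second probe set differed by 0.50. Apoc2 had 17770 and 14186, against 9874 and 10838, 1.53-fold higher (0.62, adjusted p = 0.00547). Without replicate 1 of the first wild type, Apoc2 no longer passed (0.46, adjusted p = 0.055).

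Mttp and Apoc1 lay the other way. Mttp had 2405 and 3579 in the wild type of the EC-N1ICD set, against 6182 and 5604 in that of the EC-Rbpj-KO set, 0.498 times as much (adjusted p = 0.00202 from limma), and its second probe set differed by -1.11 on the log2 scale. Apoc1 had 396 and 288, against 759 and 653, 0.480 times as much (-1.06, adjusted p = 0.00849). It no longer passed without replicate 2 of the first wild type (-0.83, adjusted p = 0.0836) or without replicate 1 of the second (-0.95, adjusted p = 0.0605). Apoc2, Apoc1 and Apoe are neighbours in a cluster on chromosome 7, and in these wild types they stood at 0.62, -1.06 and -0.08. Apoa1 and Apoa4 are neighbours on chromosome 9 and stood at -0.18 and 0.52.

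For Mttp and Apoc1 the order of the 4 groups followed the set, with both groups of the EC-N1ICD set below both of the EC-Rbpj-KO set. For Apoa4 and Apoc2 it was the reverse, and mutant and wild type within a set did not differ past the test for any of the 4 genes. Apoe, Apoa1 and Apom differed between the wild types by -0.08 to -0.18, none past the test.

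Beyond the 10 genes, 101 genes of the lipoprotein pathway were drawn up in 5 lists, of which 78 were tested. Of these, 0 rose and 1 fell in EC-N1ICD, where 0.376% of all tested genes rose and 0.22% fell. In EC-Rbpj-KO 3 rose and 5 fell, beside 2% and 2.96% of all tested genes. Of the other apolipoproteins, 4 of 8 were tested and 0 passed in either model. Apoc3, a neighbour of Apoa1 and an inhibitor of lipoprotein lipase, had 1365 and 1083 in the EC-N1ICD pair, against 1183 and 911 in the wild type pair, and 780 and 950 in the EC-Rbpj-KO pair, against 905 and 1053 in the wild type pair.

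Of 14 tested genes of lipoprotein assembly and export from the endoplasmic reticulum, 2 rose in EC-Rbpj-KO and 0 changed in EC-N1ICD. Pla2g12b, a catalytically inactive phospholipase that helps to load lipoproteins, rose 1.33-fold, with 8911 and 8176 in the EC-Rbpj-KO pair, against 6304 and 6529 in the wild type pair (adjusted p = 0.0348 from limma). Tm6sf2, a membrane protein needed to lipidate apolipoprotein B particles, rose 2.73-fold, with 186 and 225, against 95 and 59 (adjusted p = 0.0334). Both stood opposite in sign to Apob and Mttp on the same arrays. Tm6sf2 was dim, with a mean signal of 85.5 over all arrays, where the lowest mean tested was 68. It read 30 and 43 in the EC-N1ICD pair, against 24 and 22 in its wild type pair. Without the EC-Rbpj-KO pair, in which it was called higher, its mean lay below that limit. Its place among the tested genes thus rested on the pair that gave the call. In EC-N1ICD, Pla2g12b had 6623 and 6175, against 4987 and 5317 in wild type, which did not overlap and did not pass.

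Of 26 tested genes of fatty acid handling and triglyceride synthesis, 2 fell in EC-Rbpj-KO and 0 changed in EC-N1ICD. Fasn, fatty acid synthase, had 1014 and 1113 in the EC-Rbpj-KO pair, against 1955 and 1909 in the wild type pair. It fell by 0.86 on the log2 scale (adjusted p = 0.0343 from limma), and the wild type of the EC-N1ICD set read 969 and 605. Acsl3, which activates fatty acids at lipid droplets, had 617 and 412 in the EC-Rbpj-KO pair, against 893 and 1011 in the wild type pair. It fell by 0.91 (adjusted p = 0.0495 from limma).

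The largest change among these lists was that of Abca1, the exporter that loads cholesterol and phospholipid onto apolipoprotein A-I at the cell surface. It had signals of 685 and 610 in the EC-Rbpj-KO pair, against 3054 and 2891 in the wild type pair, and fell by 2.20 on the log2 scale (adjusted p = 5.9e-05 from limma), while Apoa1, its acceptor, stood at -0.10. In the EC-N1ICD pair Abca1 read 770 and 899, against 1168 and 1236 in its wild type pair, without overlap but not past the test (-0.53). The difference between the models, EC-N1ICD change minus EC-Rbpj-KO change, was 1.67 (adjusted p = 0.0185). The other probe sets of Abca1 were dim, with mean signals of 36.4 and 17, and gave -1.55 and -0.68 in EC-Rbpj-KO.

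Among the 14 tested genes of lipoprotein uptake, lipolysis and cholesterol exchange, which hold Abca1, 1 rose and 2 fell in EC-Rbpj-KO. Lrp2, megalin, an endocytic receptor that takes up lipoproteins with cubilin, had 1561 and 931, against 2910 and 2488 in wild type, and fell by 1.16 (adjusted p = 0.0156 from limma). Its 2 other probe sets gave -0.89 and -0.72, the last of them dim (mean signal 43.4), and the wild type of the EC-N1ICD set read 1512 and 1361 on the brightest. Vldlr, a receptor for triglyceride-rich particles, had 246 and 383 in the EC-Rbpj-KO pair, against 143 and 62 in the wild type pair. It rose 3.26-fold (adjusted p = 0.0477 from limma). All 5 of its dimmer probe sets were also above 0, but their mean signals, 14.75 to 37.1, lay below the lowest mean tested, 68. In the EC-N1ICD pair Vldlr read 184 and 155, against 92 and 40 in its wild type pair, without overlap and not past the test.

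Of 20 tested regulators of lipoprotein genes, 1 fell in each model. Ppargc1a, a coactivator of nuclear receptors in lipid metabolism, had 61 and 75 in the EC-N1ICD pair, against 180 and 166 in the wild type pair, and fell by 1.35 (adjusted p = 0.0156 from limma). In the EC-Rbpj-KO pair it read 312 and 383, against 306 and 287 in its wild type pair, a difference of 0.22. Its 4 dimmer probe sets gave -2.39 to -0.81 in EC-N1ICD, in the direction of the brightest, but -0.81 to -0.038 in EC-Rbpj-KO, against its direction. Those 4 had mean signals of 67 to 80.1, near the lowest mean tested. Cebpb, a transcription factor of liver and fat cells, had 366 and 436 in the EC-Rbpj-KO pair, against 981 and 859 in the wild type pair. It fell by 1.20 (adjusted p = 0.0036 from limma), and the wild type of the EC-N1ICD set read 266 and 246. Hnf4a, the nuclear receptor that drives apolipoprotein genes in liver and visceral endoderm, had 4816 and 4559 in the EC-N1ICD pair, against 5293 and 4585 in the wild type pair, and 6948 and 7106 in the EC-Rbpj-KO pair, against 6615 and 6729 in the wild type pair, at -0.07 and 0.07.

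**Figure D4:**
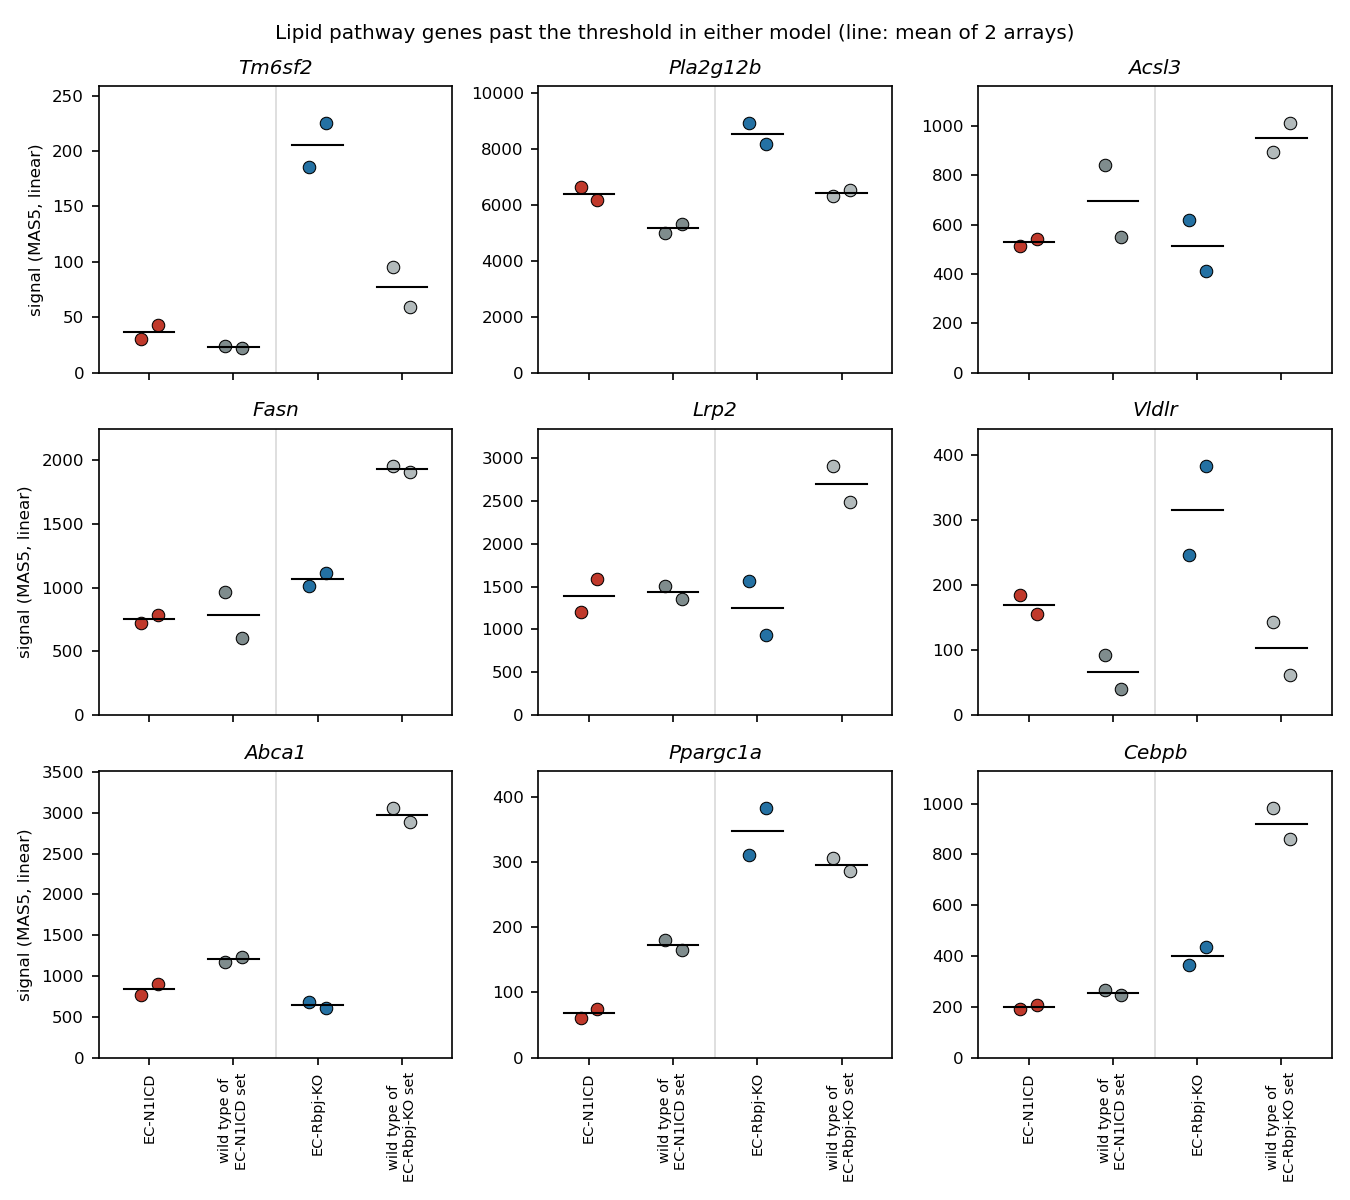
Signals (vertical axis, linear, from 0) of the 9 lipid pathway genes that passed the test in either model, with each mutant left of its wild type, points for arrays and lines for the mean of 2. Abca1 sits at 685 and 610 in EC-Rbpj-KO, below 3054 and 2891 in wild type, and Ppargc1a at 61 and 75 in EC-N1ICD, below 180 and 166.

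Of these calls, those of Abca1 and Cebpb in EC-Rbpj-KO held when any 1 of the 8 arrays was left out, and each of the others was lost without at least 1 of them. Lrp2 no longer passed without EC-Rbpj-KO replicate 2 (-0.79, adjusted p = 0.0515 from limma) or without wild type replicate 1 (-1.05, 0.103) or 2 (-1.27, 0.0604) of that set. Tm6sf2 lost its call without EC-Rbpj-KO replicate 1 (adjusted p = 0.0576) or 2 (0.131) and without wild type replicate 1 (0.0543) or 2 (0.264). Pla2g12b lost it without EC-Rbpj-KO replicate 1 (adjusted p = 0.0981), wild type replicate 1 (0.176) or 2 (0.163), and, through the shared spread, EC-N1ICD replicate 1 (0.0616) or 2 (0.0602). Fasn did so without EC-Rbpj-KO replicate 1 (adjusted p = 0.0882) or 2 (0.0654), wild type replicate 1 (0.151) or 2 (0.176), and EC-N1ICD replicate 1 (0.0540) or 2 (0.0535). Acsl3 did so without EC-Rbpj-KO replicate 2 (adjusted p = 0.206), wild type replicate 1 (0.133) or 2 (0.278), and EC-N1ICD replicate 1 (0.0743) or 2 (0.0736). Vldlr did so without EC-Rbpj-KO replicate 1 (adjusted p = 0.0521) or 2 (0.196), wild type replicate 2 (0.343), and EC-N1ICD replicate 1 (0.0655) or 2 (0.0639). The direction of each of these genes was the same under all alternatives. Ppargc1a lost its call without EC-N1ICD replicate 1 (-1.20, adjusted p = 0.184) and without either wild type array of its set (-1.30 and -1.41, adjusted p = 0.108 and 0.0834).

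Other alternatives ended calls too. In the EC-Rbpj-KO set, replicate 1 of the mutant was both the female array and the array with another title number. Its removal, the sex term and the title block therefore gave the same fold changes in EC-Rbpj-KO and are not separate checks of it. With the second-brightest probe sets, Abca1 (-1.55, adjusted p = 0.05001) and Cebpb (-1.67, 0.0717) no longer passed, nor did Pla2g12b (0.0641) and Acsl3 (0.114). With sex in the fit, where the sex term rests on the EC-Rbpj-KO pair, Ppargc1a stood at -1.06 (adjusted p = 0.259), and Tm6sf2 (0.0501), Pla2g12b (0.0960), Fasn (0.0892) and Vldlr (0.0520) lost their calls. The same 5 genes lost them with the leading title number as a block, which sets replicate 2 of a mutant alone against its wild type pair (adjusted p = 0.0596 to 0.143). With the arrays of the comparison alone or without the eBayes trend, Pla2g12b (adjusted p = 0.0782 and 0.158), Acsl3 (0.0756 and 0.102), Lrp2 (0.0534 and 0.0517) and Vldlr (0.0702 and 0.104) did not pass, and without the trend neither did Fasn (0.0813). Pla2g12b, Acsl3 and Vldlr were also lost without the filter on dim genes. By the methods' t-test none of the 9 genes passed after adjustment (adjusted p = 0.294 to 0.580).

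The labelled tissue was checked on markers of the visceral endoderm, of which 12 of 13 had a probe set. Afp, alpha-fetoprotein, read 26543 to 29705 over the 8 arrays, and Ttr, the carrier of thyroid hormone, read 26233 to 29993. Both lie near the top of the range, Afp being the highest signal on the EC-Rbpj-KO arrays, and the part of this in their steady values was not tested. In EC-N1ICD 0 of the 12 passed, with a median of -0.04. Without overlap, Epcam (0.62, adjusted p = 0.119) and Cldn6 (0.48, adjusted p = 0.102), both of epithelial contacts, read higher there, and Cdh1, E-cadherin (-0.35, adjusted p = 0.275), and Spink1, a trypsin inhibitor (-0.35, adjusted p = 0.246 from limma), read lower. Dab2 (-0.19) and Cubn (-0.05) also read lower there without overlap. In EC-Rbpj-KO, Epcam (-0.42, adjusted p = 0.154), Cdh1 (-0.35, 0.150) and Dab2 (-0.35, 0.0781 from limma) read lower without overlap. Cldn6 (0.15) and Hnf4a (0.07) read higher without overlap, and none of these passed. Of the 12 markers 1 fell in that model, with a median of -0.12 over the list. That gene was Cubn, cubilin, the partner of megalin that takes up apolipoprotein A-I. It had 14936 and 17440 in the EC-Rbpj-KO pair, against 20980 and 19984 in the wild type pair, and fell by 0.34 (adjusted p = 0.0324 from limma), and its second probe set gave -0.81. This call was lost in 14 of 20 alternatives, 7 of them the removal of 1 array, namely EC-Rbpj-KO replicate 1 (-0.23, adjusted p = 0.115), either wild type array of its set (0.162 and 0.114) or any array of the EC-N1ICD set (0.0515 to 0.0535). The summed signal of the 12 markers was 156100 and 155762 in the EC-N1ICD pair, against 158143 and 160924 in the wild type pair, and 161255 and 167196 in the EC-Rbpj-KO pair, against 170475 and 182784 in the wild type pair.

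Markers of other cells were read in the same way. Relative to wild type, the median log2 signal of 9 primitive erythroid markers was -1.93 and -0.39 in the EC-N1ICD pair. It was -0.79 and -0.02 in the EC-Rbpj-KO pair. In each model 1 of the 9 fell, Tfrc, the transferrin receptor. That of 8 macrophage markers was 1.09 and 0.36 in EC-N1ICD, where Ly86 rose, and 1.47 and 1.19 in EC-Rbpj-KO, where Ly86, Cx3cr1, Csf1r, Tyrobp and Adgre1 rose. Csf1r, the receptor of macrophage colony-stimulating factor, had 2497 and 1935 in the EC-Rbpj-KO pair, against 965 and 599 in the wild type pair, and rose (log2 1.53, adjusted p = 0.00391 from limma). Of 8 tested endothelial markers 2, Cldn5 and Icam2, rose in EC-Rbpj-KO and 0 passed in EC-N1ICD. Tek read lower in EC-Rbpj-KO without overlap, with 187 and 181, against 276 and 336 in wild type (-0.73, adjusted p = 0.103 from limma). Kdr and Egfl7 stood at 0.02 and 0.05 there, and Esam, Tie1 and Cdh5 at 0.90, 0.67 and 0.34, none past the test. Of 9 mesodermal and mesothelial markers 1, Pdgfra, fell in EC-Rbpj-KO and 0 passed in EC-N1ICD. The median log2 fold change of that list in EC-Rbpj-KO was 0.10. Col1a2 (0.17), Col3a1 (0.13), Vim (0.29) and Postn (0.10) read higher there without overlap and Hand1 (-0.15) lower, none past the test. The trophoblast and decidua list had 3 probe sets of 5 genes, of which 2 were tested and 0 passed, and its median was 0.89 and 1.21 on the 2 arrays of EC-N1ICD, beside -0.10 and -0.52 on those of EC-Rbpj-KO. Plac1, a placental gene of that list, had 2433 and 1934 in the EC-N1ICD pair, against 558 and 1047 in the wild type pair (2.84 times wild type, adjusted p = 0.108 from limma). Summed over the 3 probe sets, the list had 2681 and 2434 in the EC-N1ICD pair, against 716 and 1393 in the wild type pair. The part of these shifts in the values of the lipid genes was not tested.

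**Figure D5:**
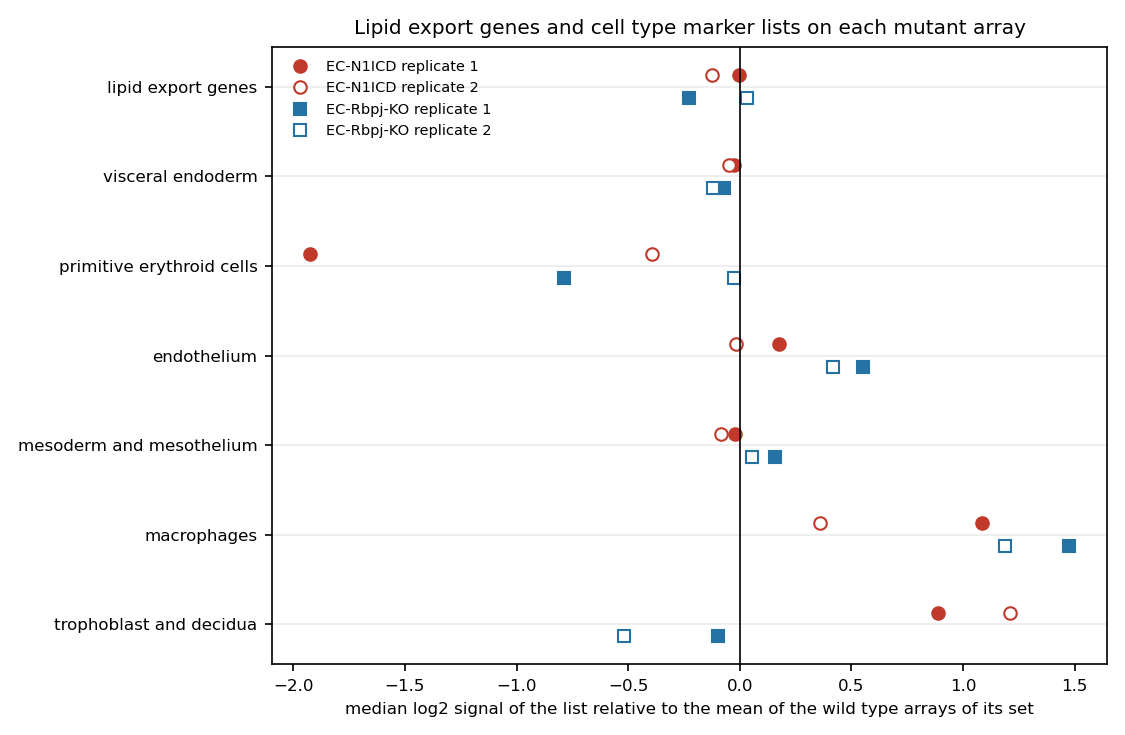
Median log2 signal of the 10 lipid export genes and of 6 lists of cell type markers on each mutant array, set against the wild type mean of the same set (horizontal axis, filled and open points for replicates 1 and 2). The lipid export genes range from -0.23 to 0.03 and the visceral endoderm markers from -0.12 to -0.03. The erythroid and macrophage markers range from -1.93 to 1.47. The 2 tested trophoblast and decidua markers reach 0.89 and 1.21 in EC-N1ICD.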

How the data were processed

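RNA of E9.5 yolk sacs was measured on 8 arrays in 4 groups of 2, assigned from the sample labels. The deposited intensity values, 1 linear signal per probe set and array, were made by the authors with MAS5 according to the submitters' processing notes (version and scaling target are not given in the sources used here), and carry no detection calls. Gene names came from the platform annotation, in which 34958 name 1 gene. The 932 naming several and the 9211 naming none were left out. The brightest probe set on average stood for a gene, and genes at or below the 40th percentile of mean signal were left out, which kept 10913. The test was that of limma 3.58.1 on log2 signals in R 4.3.3 (4 groups in 1 fit, eBayes with trend, two-sided, Benjamini-Hochberg adjustment at 0.05). The number of arrays limits the precision, and an exact permutation test of 2 against 2 cannot go below 0.333. The steps were tested on simulated data. Alternatives were the scaling, an added constant, the filter, the probe set, the arrays fitted, the trend, sex as a term, each array left out and the methods' t-test. The 10 genes and all lists were chosen with earlier results of these data known. The text names the 10 genes, every gene of the pathway lists past the threshold in either mutant (up to 4 per list and comparison), the 5 tested genes nearest in profile, Rbpj and Notch1. Apoc3, Hnf4a and the cell type markers named fall outside that rule and were chosen after their values were seen. The comparison of the wild types, the second-brightest probe sets, the title number as a block and the motifs were chosen after seeing the data. Promoter windows came from RefSeq (GRCm38.p6).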

Additional observations from a re-analysis of the deposited data

Results flagged for a closer look

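The change of Abca1, the cholesterol exporter that loads apolipoprotein A-I, differed between the models by the test of the difference itself, which is what marked it. The EC-N1ICD change minus the EC-Rbpj-KO change was 1.67 on the log2 scale (adjusted p = 0.0185 from limma). Its signals were 770 and 899 in the EC-N1ICD pair, against 1168 and 1236 in the wild type pair, and 685 and 610 in the EC-Rbpj-KO pair, against 3054 and 2891 in the wild type pair, so that the wild types of the sets stood further apart than the mutants. Without replicate 1 or 2 of the wild type of the EC-N1ICD set the difference was 1.63 and 1.71. Without replicate 1 of the wild type of the EC-Rbpj-KO set it was 1.63, and the difference did not pass in any of these. It did not pass either with the mean of all probe sets (1.39, adjusted p = 0.0977), the second-brightest probe sets (1.55, adjusted p = 0.351) or eBayes without trend (adjusted p = 0.0525). No array among the 10 lipid export genes was marked, since groups of 2 are too small for a test of single arrays.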

How the results depend on the processing

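No paired analysis was possible because the replicate numbers only name the arrays and the titles tie no single mutant to a single wild type array. The leading title number was fitted as a block instead, and none of the 10 genes passed with it. None of the 10 genes passed in EC-N1ICD, or in the difference between the models, under any alternative. In EC-Rbpj-KO 1 gene, Apob, passed with the mean of all probe sets, and 0 did under the other alternatives, in which Apob ran from -0.86 to -0.22, Apom from -0.32 to -0.11 and Mttp from -0.56 to -0.20. The wild types differed in 3 to 5 genes. Signs turned only for differences that had not passed. In EC-N1ICD they were Dgat2 with median centring (-0.00019), Mttp with the second-brightest probe set (-0.27), the mean of all of them (-0.10) or the title block (-0.14), Apob with that block (-0.031), and, with sex in the fit, Apoc1 (0.31), Apoc2 (0.082) and Apom (0.12). In EC-Rbpj-KO they were Apoc2 with median centring (0.0043), Dgat2 with the mean of all probe sets (-0.13), Apoa4 (-0.047) and Dgat2 (-0.39) with the second-brightest, and Apoa1 (0.021) and Apoc2 (0.040) with sex in the fit or the title block. Median centring moved the median of all genes between the wild types by 0.30, and quantile normalization by 0.21. The first turned Apoa1 (0.12), Apob (0.21), Apoe (0.22), Apom (0.22) and Dgat2 (0.083) to higher in the wild type of the EC-N1ICD set, and on its second probe set Apom stood at 0.0057. The 4 called differences kept their direction. Over the removal of single arrays, EC-N1ICD values ran from -0.031 to 0.18 for Apob, -0.32 to 0.046 for Apoc2, -0.046 to 0.17 for Apoe, -0.23 to 0.35 for Mttp and -0.13 to 0.16 for Dgat2. EC-Rbpj-KO values ran from -0.21 to 0.021 for Apoa1, -0.082 to 0.14 for Apoa2, -0.34 to 0.43 for Apoc1, -0.18 to 0.040 for Apoc2 and -0.0032 to 0.25 for Dgat2. The wild type difference of Apoe ran from -0.19 to 0.032. The cause of these turns was not tested.

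Over all genes, 65 passed in EC-N1ICD. The count was 118 with quantile normalization, 106 with median centring, 103 with the arrays of the comparison alone, 27 with the 60th percentile filter, 28 with the second-brightest probe sets, 15 with sex in the fit, 26 with the title block and 7 to 140 without single arrays. In EC-Rbpj-KO 541 passed, 339 with the second-brightest probe sets, 266 with its own arrays alone and 147 to 628 without single arrays. With median centring 375 rose and 300 fell there, against 218 and 323 as reported. The methods' t-test gave 939 and 1313 genes at an unadjusted p under 0.05, and 0 and 1 after adjustment.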
